A study of Mus musculus with 6 samples.

Results

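Nuclear factor I proteins (Nfia, Nfib, Nfic and Nfix) and ZEB proteins (Zeb1 and Zeb2) are DNA-binding transcription factors, and their 6 genes were followed through the start sites of their RNAs in 2 mouse cell lines. The genes were chosen by name, out of 35325 annotated genes (21951 coding, 13374 for long non-coding RNA) on the chromosomes used. The data are cap analysis of gene expression (CAGE), which sequences a short tag from the 5′ end of each captured capped RNA. Nuclear RNA was used, from 3 libraries of mESC R08, a mouse embryonic stem cell line, and 3 libraries of mOPC, here the oli-neu line derived from mouse oligodendrocyte progenitor cells. The mESCs were kept without feeder cells in medium with 1000 U/ml leukemia inhibitory factor. The oli-neu cells proliferated with 340 ng/ml T3, 400 ng/ml L-thyroxine, 10 ng/ml bFGF and 1 ng/ml PDGF-BB. No change to a gene and no agent was compared within a line, so each cell type stands for 1 line in its own medium. Any gene change that a line itself carries cannot be told apart from its cell type. The labels do not say whether libraries came from separate cultures, so p-values measure the spread between these libraries only.

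Libraries held between 16657021 and 40928704 tags, and values are given as TPM (tags divided by the library total and multiplied by 1000000). Each RNA gives 1 tag whatever its length, so TPM can be compared between genes. The files of a cell type carry 1 library label that differs between cell types, so the preparation and the cell type cannot be told apart. A single position took 5.38% to 5.92% of the tags in mOPC libraries and 0.508% to 0.667% in mESC libraries, which lowers the TPM of other genes in mOPCs by about that share. Of 8 pluripotency markers, 8 were lower in mOPCs, with summed levels of 3841 to 4182 TPM in mESCs and 41.2 to 46.0 TPM in mOPCs. Of 8 progenitor markers, 7 could be tested and 7 were higher in mOPCs (2413 to 2558 TPM against 8.82 to 10.1 TPM). The smallest of these increases was that of Pdgfra, from 5.51 TPM in mESCs to 8.33 TPM in mOPCs. Nkx2-2 had 0 tags in every mOPC library. For comparison with these counts, 43.4% of all tested genes were called higher in mOPCs and 47.8% lower. Markers of other cell types moved too. Differentiated oligodendrocyte genes summed to 247 to 283 TPM in mOPCs and 2.40 to 3.20 TPM in mESCs, with 4 of 4 genes higher. Neuron markers summed to 81.3 to 102 TPM in mOPCs nearly all from Syt1, with Rbfox3 and Snap25 at 0 tags there and 1 of 4 higher. Astrocyte markers summed to 82.7 to 94.8 TPM in mOPCs against 46.7 to 50.7 TPM, mostly Slc1a3, with Aqp4 at 0. Primitive endoderm markers summed to 29.6 to 35.7 TPM in mESCs and at most 0.0347 TPM in mOPCs, fibroblast markers to 17.9 to 23.4 TPM against 9.67 to 12.3 TPM, and microglia markers to at most 0.139 TPM in any library. The part of these cells in the results below was not tested.

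Nuclear factor I proteins bind DNA as dimers at a palindrome with the motifs TTGGC and GCCAA. They are known for their roles in the onset of gliogenesis in the embryonic nervous system, where Nfia acts together with Sox9, and in the maturation of glia. Zeb1 and Zeb2 hold clusters of zinc fingers at both ends of the protein, bind E-boxes of the form CACCTG, and recruit CtBP co-repressors. They are best known as repressors of epithelial genes such as Cdh1 in epithelial-mesenchymal transition, and Zeb2, which also binds SMAD proteins, is required for the differentiation of oligodendrocytes. In a single gene of either family, alternative promoters give RNAs with different first exons.

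All 6 genes had more tags at their promoters in mOPCs than in mESCs, and the increases ran from 1.23-fold for Nfib to 68.5-fold for Nfix. The changes were tested with the quasi-likelihood test of edgeR on tags within 500 bp of annotated 5′ ends, for 16713 genes that passed a filter on low counts, with Benjamini-Hochberg adjustment and a threshold of 0.05. A call by itself says little here, since 43.4% of all tested genes were called higher in mOPCs and 47.8% lower. The size of the change separates the 6 genes more than the call does. Only 4.76% of tested genes had a larger log2 fold change than Nfix, 5.10% a larger one than Nfia and 7.32% a larger one than Zeb2, whereas the corresponding figures were 14.5% for Zeb1, 21.2% for Nfic and 42.1% for Nfib. The median log2 fold change of all tested genes was -0.12.

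Nfix and Nfia, 2 of the 4 nuclear factor I genes, had few promoter tags in mESCs. The promoters of Nfix (ENSMUSG00000001911.16, mm10 chromosome 8, 84699876 to 84800344, minus strand) gave 1.19, 0.720 and 0.977 TPM in the 3 mESC libraries and 74.3, 72.3 and 74.0 TPM in the 3 mOPC libraries. The libraries of the cell types did not overlap, and the log2 fold change was 6.10 (SE 0.14, edgeR adjusted p = 5.33e-62). Outside the promoter windows, the gene body of Nfix held a further 5.70 TPM in mESCs and 18.7 TPM in mOPCs. Over the whole gene body the log2 fold change was 3.58. Nfia (ENSMUSG00000028565.18, chromosome 4, 97772734 to 98118874, plus strand) gave 2.85, 2.52 and 3.20 TPM in mESCs and 178, 181 and 176 TPM in mOPCs. Its log2 fold change was 5.89 (SE 0.12, edgeR adjusted p = 7.81e-68), and again every mOPC library lay above every mESC library.

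Nfic and Nfib were expressed in both lines. Nfic (ENSMUSG00000055053.18, chromosome 10, 81396186 to 81455635, minus strand) gave 31.8, 31.0 and 28.5 TPM in mESCs and 101.3, 104 and 109 TPM in mOPCs, a log2 fold change of 1.71 (SE 0.09, edgeR adjusted p = 1.63e-33). Nfib (ENSMUSG00000008575.17, chromosome 4, 82290173 to 82705750, minus strand) gave 44.9, 44.2 and 53.6 TPM in mESCs and 56.7, 61.1 and 65.7 TPM in mOPCs. Its libraries came close to each other without overlapping, and the log2 fold change was 0.30 (SE 0.09, edgeR adjusted p = 0.00135). This small increase depended on 1 library: without mESC replicate 2 the log2 fold change was 0.19 with an edgeR adjusted p of 0.077.

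By tags at all annotated promoters, both ZEB genes reached higher levels in mOPCs than any nuclear factor I gene. Zeb2 (ENSMUSG00000026872.17, chromosome 2, 44983632 to 45117395, minus strand) gave 7.81, 9.85 and 9.23 TPM in mESCs and 236, 213 and 227 TPM in mOPCs, a log2 fold change of 4.61 (SE 0.10, edgeR adjusted p = 3.31e-63). Zeb1 (ENSMUSG00000024238.15, chromosome 18, 5591860 to 5775467, plus strand) gave 37.2, 42.3 and 41.4 TPM in mESCs and 258, 263 and 242 TPM in mOPCs, a log2 fold change of 2.59 (SE 0.09, edgeR adjusted p = 3.67e-48). The 6 genes each had all mOPC libraries above all mESC libraries, which was also true of 44.6% of all tested genes.

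The order of the levels differed between the lines. In mESCs it was Nfib with 47.6 ± 5.201 TPM (SD, n = 3), Zeb1 with 40.3 ± 2.70, Nfic with 30.5 ± 1.69, Zeb2 with 8.96 ± 1.04, Nfia with 2.86 ± 0.340 and Nfix with 0.962 ± 0.234 TPM. In mOPCs it was Zeb1 with 254 ± 11.3 TPM (SD, n = 3), Zeb2 with 226 ± 11.4, Nfia with 178 ± 2.48, Nfic with 104.6 ± 3.68, Nfix with 73.5 ± 1.05 and Nfib with 61.2 ± 4.47 TPM. Neighbours in either order had no overlapping libraries. By promoter tags, Nfib was first of the 6 in mESCs and last in mOPCs. The place of Zeb1 in mOPCs rested on its downstream promoters, which gave 162 ± 8.44 and 33.9 ± 1.90 TPM. Its most upstream promoter gave 58.5 ± 3.57 TPM there, under the level of Nfib. Tags inside the genes but outside the windows are not part of this order, and they came to 51.1 TPM for Nfib and 18.7 TPM for Nfix in mOPCs, and to 34.6 TPM for Nfic and 16.9 TPM for Nfib in mESCs. Among all tested genes, Zeb1 and Zeb2 lay at percentiles 98.2 and 97.7 of the mOPC levels, and Nfix lay at percentile 14.9 of the mESC levels.

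**Figure D1:**
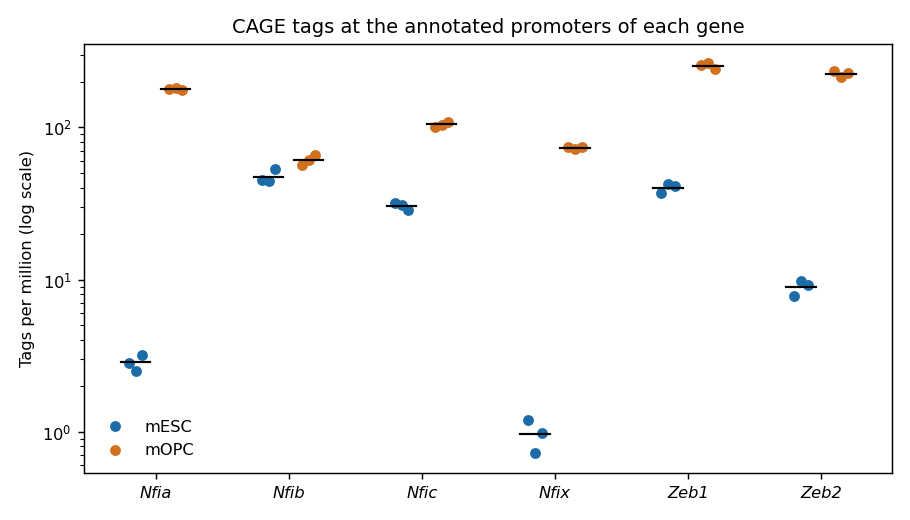
TPM (log axis) at the annotated promoters of the 6 genes, 1 point per library and a line at the mean of 3 libraries, for mESC (blue) and mOPC (orange). Nfia, Nfix and Zeb2 lie under 10 TPM in mESCs and above 70 TPM in mOPCs, while the Nfib libraries of the cell types lie close to each other.

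Annotated 5′ ends whose 500 bp windows overlapped were joined to promoters and numbered from 5′ to 3′ along each gene (P1, P2 and so on). The 6 genes held 25 promoters, of which 18 passed the filter on low counts. The other 7 had at most 17 tags in any library, and 6 of the 25 had 0 tags in all mESC libraries. Of the 18 tested, 15 were higher in mOPCs, 2 were lower and 1 was not called (edgeR, adjusted p under 0.05). Of all 21825 tested promoters, 43.4% were higher and 46.1% lower. Nfix P2, Zeb1 P2 and P3, and Zeb2 P2, P4 and P5 passed the filter only through their mOPC tags. Nfic P1 passed it only through its mESC tags. The direction of these calls was largely set by passing the filter and is no separate evidence. The count of increases follows from the gene levels above, so the shares of a gene's promoter tags taken by each promoter were compared as well. Shares were tested for 17 promoters in 5 genes with diffSpliceDGE of edgeR, which asks whether a promoter changed differently from the rest of its gene. The share of promoters that passed it was 15 of 17, against 48.6% of all promoters with this test. The 17 include the promoters named above that passed the filter through 1 line only. For those promoters the usage test is no separate evidence either. At the level of genes it was passed by 5 of 5, against 68.8% of all genes tested. Nfib could not be tested, since only P2 passed the filter.

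In Nfix and Nfia, P2 had the largest share of tags in mOPCs. In mESCs it had 0 tags in Nfix and a share close to that of P1 in Nfia. Nfix P1 (5′ ends at 84800024 to 84800344) and P2 (84773396 to 84774369), 25975 bp downstream, start coding transcripts with separate start codons in their first exons. P1 had 34, 9 and 13 tags in mESCs and 577, 682 and 1003 tags in mOPCs. P2 had 0 tags in all mESC libraries and 1028, 1390 and 1997 tags in mOPCs. With the mESC level set to the limit that 3 tags in all 72972385 mESC tags allow, P2 was at least 1171-fold higher in mOPCs, whereas P1 rose by a log2 fold change of 4.89 (SE 0.17, edgeR adjusted p = 7.74e-74). P2 therefore held 0% of the Nfix promoter tags in mESCs and 65.2% ± 1.88 (SD, n = 3) in mOPCs, and P1 fell from 74.3% ± 1.79 to 33.7% ± 1.46 (edgeR usage adjusted p = 8.98e-09). Most P2 tags lay far from the annotated ends, and with windows of 100 bp the share of P2 was 9.57 percentage points higher in mOPCs and that of P1 changed by -0.348 percentage points. The remaining mESC promoter tags lay at P3 (8, 3 and 4 tags) and P4 (3, 0 and 1 tags), downstream promoters of non-coding transcripts that did not pass the filter.

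Nfia P1 (97772734) and P2 (97777608 to 97777834), 4874 bp downstream, also start coding transcripts with separate start codons. In mESCs both had few tags, and which of them led there was not tested. P1 had 55, 25 and 32 tags in mESCs and 801, 959 and 1432 tags in mOPCs, and P2 had 53, 17 and 27 tags against 3083, 4236 and 5741 tags. Both rose, P1 by a log2 fold change of 4.37 (SE 0.15, edgeR adjusted p = 3.20e-78) and P2 by 6.61 (SE 0.14, edgeR adjusted p = 2.10e-116). The share of P2 went from 45.1% ± 4.34 in mESCs to 80.1% ± 1.103 in mOPCs (SD, n = 3 each, edgeR usage adjusted p = 1.27e-05). The leading P1 positions of all libraries lay more than 300 bp upstream of the annotated end, at 97772416 and 97772401. With windows of 100 bp, the P2 share was lower in mOPCs than in mESCs, by 2.20 percentage points.

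Among annotated promoters with windows of 500 bp, Nfic and Nfib kept their leading ones. An intronic group of Nfic starts outside these windows, given below, was at a level like that of P3 in mESCs. Nfic P3 (81427114 to 81427187) led in both lines, with 15.9, 13.6 and 12.2 TPM in mESCs and 74.9, 75.5 and 80.4 TPM in mOPCs. Its share of the Nfic promoter tags rose from 45.6% ± 3.98 to 73.5% ± 0.736 (SD, n = 3 each, edgeR usage adjusted p = 1.36e-07). P2 (81431005), which starts a coding transcript with another first exon and start codon, rose from 11.2 ± 0.784 to 25.4 ± 1.90 TPM while its share fell from 37.0% to 24.3% (edgeR usage adjusted p = 1.57e-05). With windows of 100 bp, P2 did not pass the test, with a log2 fold change of -0.09 (edgeR adjusted p = 0.66). With windows of 1000 bp its share differed by -1.05 percentage points, against -12.7 with 500 bp. The shares of P5 and P3 then differed by -28.1 and 45.8 percentage points (mOPC minus mESC).

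Nfic also held the 2 tested promoters that fell. P1 (81455635), the most upstream one, had 60, 20 and 28 tags in mESCs and 5, 4 and 1 tags in mOPCs, a log2 fold change of -3.81 (SE 0.40). P4 (81407641), 47994 bp downstream of P1, had 117, 58 and 66 tags in mESCs and 54, 33 and 37 tags in mOPCs, a log2 fold change of -1.38 (SE 0.22, edgeR adjusted p = 2.40e-08). The leading position of P4, 81407669, lies upstream of its annotated end and in an exon of a transcript that starts at P3. Whether the P4 tags mark a promoter of their own was not tested. P5 (81400554) had 20, 10 and 5 tags in mESCs and 11, 24 and 23 tags in mOPCs, and its log2 fold change of 0.27 did not pass the test (SE 0.35, edgeR adjusted p = 0.45). Nfib had 99.97% of its promoter tags at P2 (82505308 to 82505779) in mESCs and 99.9% in mOPCs. P1 of Nfib, 199971 bp upstream of P2, had 0, 0 and 0 tags in mESCs and 1, 1 and 0 tags in mOPCs, both under the limit that 3 tags set. The increase of Nfib P2 (log2 fold change 0.25, SE 0.09, edgeR adjusted p = 0.00950) lost its call with DESeq2 (0.13, adjusted p = 0.21), without a filter on low counts (0.11, edgeR adjusted p = 0.41) and when any of 5 libraries was left out.

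**Figure D2:**
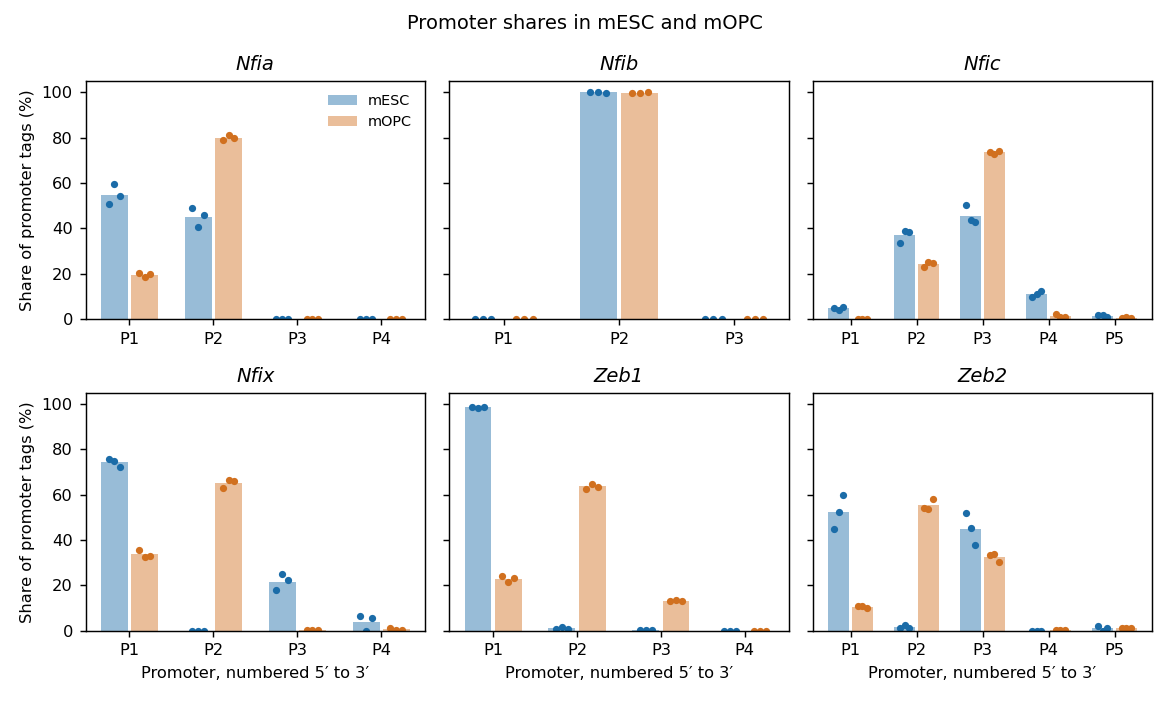
Share of each gene's promoter tags (%) at its promoters P1 to P5, numbered 5′ to 3′, as the mean of 3 libraries (bars) with 1 point per library, for mESC (blue) and mOPC (orange). P2 has the highest mOPC bar in Nfia, Nfix, Zeb1 and Zeb2 and is not the highest in mESCs, where P1 and P2 of Nfia lie close. P3 of Nfic and P2 of Nfib are highest in both lines.

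Sequences at the leading start positions are shown to let the promoters be recognised and to show how the deposited positions lie on the sequence. RNA polymerase II starts mostly at a purine that follows a pyrimidine. Over RefSeq promoter windows (GRCm38.p6, which is mm10) with at least 50 tags in a library, between 8956 and 10397 per library, the position with the most tags was a pyrimidine followed by a purine in 87.1% to 88.1% of windows. It was a purine preceded by a pyrimidine in 1.16% to 1.46%. The deposited position is therefore given below as the pyrimidine, with the capitals marking it and the base after it. Each line holds 21 bases of the annotated GENCODE vM21 transcript, 5′ to 3′, and the promoters shown are those whose levels or shares the results below and above turn on.
Nfia P2, chr4:97777613-97777633, plus strand: tgcggtgcggTGcagaacgcg
Nfib P2, chr4:82505370-82505390, minus strand: gccacccgcgCGcactcgctt
Nfic P2, chr10:81430807-81430827, minus strand: cgcgcctcccCGccggccgtc
Nfic P4, chr10:81407659-81407679, minus strand: gagcaagcggCAcaagtcggg
Nfix P2, chr8:84774008-84774028, minus strand: tccctttcgcTGcgtctgcca
Zeb2 P1, leading in mESC, chr2:45117258-45117278, minus strand: ggcttcctcgCGgagcggggc
Zeb2 P1, leading in mOPC, chr2:45117357-45117377, minus strand: acccccctttTGtgagactga
Zeb2 P2, chr2:45112993-45113013, minus strand: gaaaagagatCAgttctaacc

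Within these promoters the leading position was either shared or differed between the lines. At Nfib P2 the same position, 82505380, led in all 6 libraries, with 21.9%, 20.9% and 19.6% of the P2 tags in mESCs and 17.0%, 15.6% and 18.01% in mOPCs. At Nfic P2, position 81430817 led in both lines with 12.6% ± 1.23 and 11.8% ± 1.78 of the tags (SD, n = 3 each). At Nfia P2, position 97777623 held 20.3% ± 0.459 of the mOPC tags, and its share of the few mESC tags was 20.8%, 5.88% and 11.1%. At Nfix P2, position 84774018 led in all mOPC libraries with 14.5% ± 1.39 of the tags, 351 bp downstream of the more upstream annotated end.

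Nfic P3 kept its place among the annotated promoters but not its leading position. Position 81427171 held 16.2%, 14.1% and 10.7% of the P3 tags in mESCs and 7.43%, 6.34% and 7.75% in mOPCs. Position 81427158, further downstream, held 7.45%, 7.49% and 5.78% in mESCs and 20.4%, 17.95% and 16.7% in mOPCs. Position 81427155 held slightly more than the latter in 1 mOPC library, with 17.9% of the tags. The libraries of the lines did not overlap at positions 81427171 and 81427158, and exact permutation tests of 3 against 3 libraries cannot give a p below 0.1. The RefSeq window of this promoter (300 bases, minus strand) is printed below with capitals at the leading mESC position and, downstream, the leading mOPC position, each with the base after it.
Nfic P3, chr10:81427124-81427423: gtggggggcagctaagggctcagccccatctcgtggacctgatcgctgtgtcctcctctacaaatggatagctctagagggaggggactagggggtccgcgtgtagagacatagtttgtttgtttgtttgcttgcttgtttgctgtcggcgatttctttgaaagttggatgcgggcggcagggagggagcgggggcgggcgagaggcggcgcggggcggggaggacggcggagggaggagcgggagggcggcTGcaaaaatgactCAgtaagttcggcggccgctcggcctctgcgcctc

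**Figure D3:**
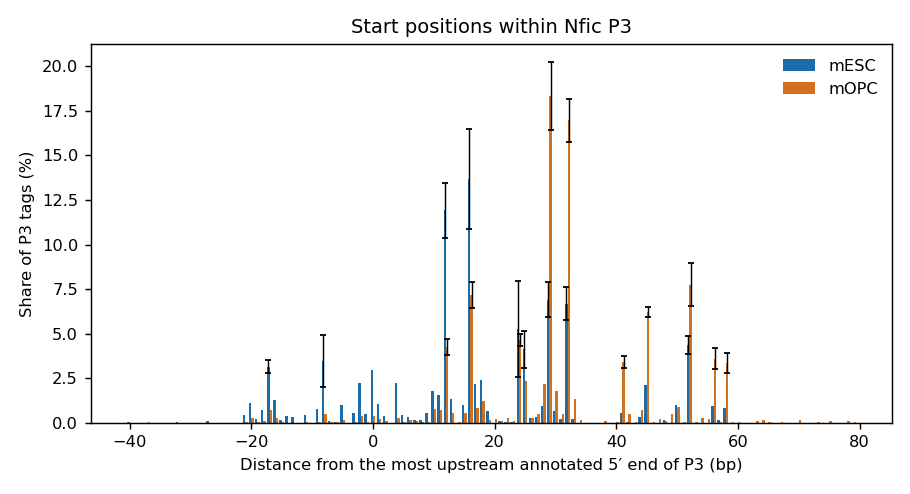
Share of the Nfic P3 tags (%) at each position, as bp downstream of the most upstream annotated 5′ end, mean of 3 libraries for mESC (blue) and mOPC (orange), with SD bars where the mean is at least 3%. The highest mESC bar stands at 16 bp and the highest mOPC bar at 29 bp, next to another high mOPC bar at 32 bp.

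Zeb2 had different leading promoters in the 2 lines. In mESCs its tags lay at P1 (45117395) and P3 (45110076 to 45111174), and in mOPCs most lay at P2 (45112890 to 45113508) between them. P2 had 3, 4 and 2 tags in mESCs and 2812, 3312 and 5428 tags in mOPCs, a log2 fold change of 9.80 (SE 0.19). P1 had 133, 86 and 102 tags in mESCs and 556, 668 and 940 tags in mOPCs, a log2 fold change of 2.26 (SE 0.13, edgeR adjusted p = 1.23e-42). P3 had 154, 74 and 64 tags in mESCs and 1735, 2083 and 2806 tags in mOPCs, a log2 fold change of 4.07 (SE 0.12, edgeR adjusted p = 3.26e-88). The share of P2 therefore went from 1.54% ± 0.780 in mESCs to 55.5% ± 2.44 in mOPCs (SD, n = 3 each). That of P1 went from 52.5% ± 7.53 to 10.6% ± 0.411 (SD, n = 3 each, edgeR usage adjusted p = 5.95e-31). Which of the mESC promoters lost more of its share depended on the window. The differences were -41.9 percentage points for P1 and -12.4 for P3 with 500 bp, and -19.5 and -35.5 with 100 bp.

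The transcripts of Zeb2 P1, the coding transcripts of P2 and part of those of P3 share 1 annotated start codon, at 45110088, so the promoters differ in the first exon rather than in the start of the coding sequence. A further 2 start codons, at 45110410 and 45110542, belong to transcripts of P3. P4 (45054241), a promoter inside the gene, had 0 tags in mESCs and 11, 13 and 30 tags in mOPCs, at least 14.3-fold higher. P5 had 6, 0 and 2 tags in mESCs and 59, 77 and 106 tags in mOPCs. The shares of P4 and P5 did not pass the usage test (edgeR usage adjusted p = 0.15 and 1.00). Within P1, position 45117268 held 8.27%, 11.6% and 9.80% of the tags in mESCs and 1.26%, 1.65% and 1.38% in mOPCs, and position 45117367, upstream of it, held 5.26%, 0% and 3.92% in mESCs and 12.6%, 13.2% and 11.5% in mOPCs.

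A RefSeq window at the upstream part of Zeb2 P2 is printed to show part of this promoter. It held 1, 1 and 0 tags in the mESC libraries and 1277, 1581 and 2632 tags in the mOPC libraries, out of 2812, 3312 and 5428 tags of P2. The leading position of P2 as a whole, 45113003, lies outside it. Capitals mark 45113222, the position with the most mOPC tags inside this window, and the base after it.
Zeb2 P2, chr2:45113204-45113503, minus strand: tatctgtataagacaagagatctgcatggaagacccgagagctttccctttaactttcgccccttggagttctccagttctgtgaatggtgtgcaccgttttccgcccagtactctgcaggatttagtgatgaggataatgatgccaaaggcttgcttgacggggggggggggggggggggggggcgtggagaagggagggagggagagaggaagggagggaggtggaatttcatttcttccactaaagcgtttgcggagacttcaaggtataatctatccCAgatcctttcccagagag

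Neither this window nor that of Nfic P3 held CACCTG or CAGGTG, the E-box of ZEB proteins on either strand, which 20.2% of the 32851 RefSeq promoter windows hold. Neither held TTGGC and GCCAA at a distance of 5 bases, the nuclear factor I palindrome, which reads the same on both strands and was found in 0.0365% of windows. A single TTGGC or GCCAA, which 46.7% of windows hold, occurred in the Zeb2 window and not in the Nfic window. These are matches of letters in 300 bases and do not show binding or its absence.

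Zeb1 started at a single narrow promoter in mESCs and over a wide stretch in mOPCs. In mESCs 98.6% ± 0.371 of its promoter tags lay at P1 (5591860 to 5591912), and in mOPCs 23.0% ± 1.30 did (SD, n = 3 each, edgeR usage adjusted p = 1.20e-40). P2 (5593308 to 5594203), which begins 1448 bp downstream, had 11, 12 and 6 tags in mESCs and 3548, 4918 and 6289 tags in mOPCs, a log2 fold change of 8.51 (SE 0.16). P3 (5603744), the start of a non-coding transcript 11884 bp downstream of P1, had 5, 1 and 4 tags in mESCs and 741, 1033 and 1311 tags in mOPCs, a log2 fold change of 7.77 (SE 0.22). P2 took 63.7% ± 1.05 and P3 13.3% ± 0.263 of the mOPC promoter tags. P1 and P2 have coding transcripts with separate start codons, but 3 of the 4 transcripts of P2 and the transcript of P3 are annotated as processed transcripts. With the ends of the GENCODE basic set, which leaves out P2 and P3, the log2 fold change of Zeb1 was 0.37 instead of 2.59.

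P1 of Zeb1 itself appeared to rise slightly, with 1394, 691 and 753 tags in mESCs and 1371, 1642 and 2288 tags in mOPCs (log2 fold change 0.44, SE 0.09, edgeR adjusted p = 4.52e-06), but the direction depended on the window. Within 100 bp of the annotated ends there were 36.6, 41.2 and 40.8 TPM in mESCs and 33.3, 27.6 and 26.0 TPM in mOPCs, and the log2 fold change was -0.63 (edgeR adjusted p = 6.31e-09). In the 400 bp of the window further downstream there were 0.238, 0.240 and 0.109 TPM in mESCs and 29.1, 29.3 and 29.8 TPM in mOPCs. In the 395 bp between the windows of P1 and P2 there were 0.285 ± 0.0528 TPM in mESCs and 46.3 ± 0.994 TPM in mOPCs. Within single libraries, the middle 80% of the P1 tags spanned 27 to 28 bp in mESC libraries and 440 to 448 bp in mOPC libraries. The narrow start used in mESCs thus had fewer tags in mOPCs, while the increase of Zeb1 lay downstream of it.

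**Figure D4:**
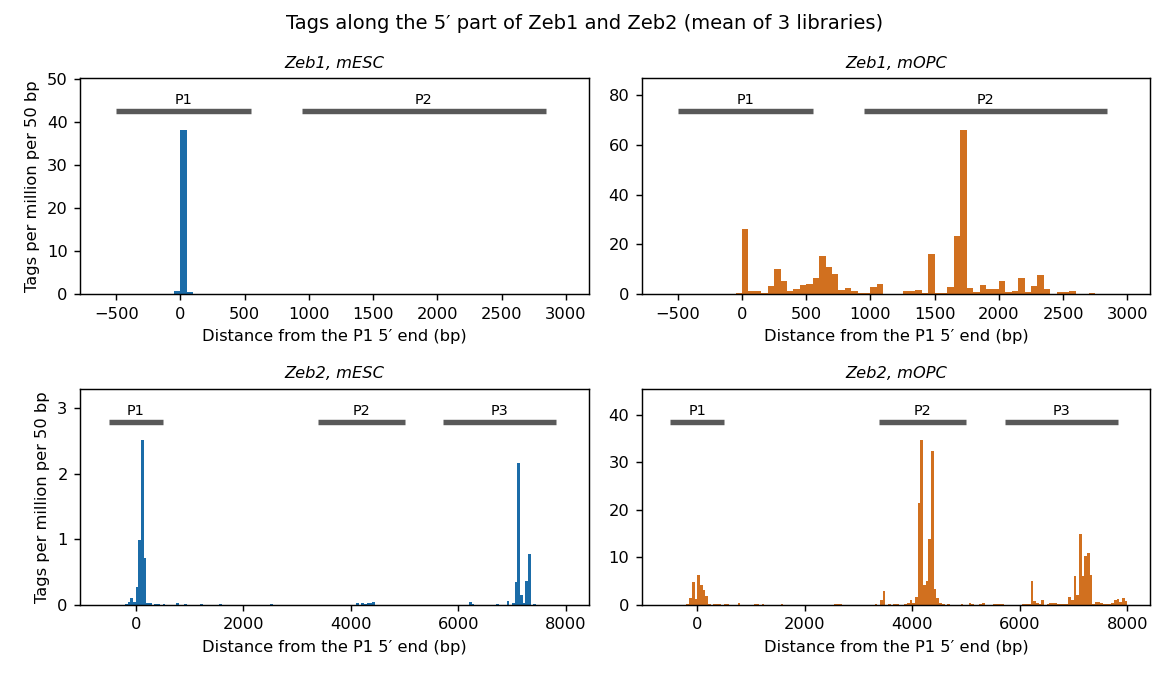
Mean TPM (3 libraries) in bins of 50 bp against the distance from the 5′ end of P1, for Zeb1 (top) and Zeb2 (bottom) in mESC (left, blue) and mOPC (right, orange), with the windows of the promoters as grey bars and an axis of its own for each panel. Zeb1 has 1 peak at P1 in mESCs and starts along the whole 5′ part in mOPCs, with the highest bin in P2. Zeb2 has peaks in P1 and P3 in mESCs and the highest bins in P2 in mOPCs.

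Tags that lay inside the gene but in no promoter window were counted on the same strand. Their share of the tags of the gene body was higher in mOPCs for Zeb1 (13.7% ± 2.26 in mESCs, 39.3% ± 0.875 in mOPCs), Zeb2 (11.7% ± 1.28, 41.4% ± 1.21), Nfib (26.3% ± 2.35, 45.5% ± 0.312) and Nfia (30.1% ± 6.21, 42.9% ± 0.699). It was lower in mOPCs for Nfic (54.4% ± 1.90, 17.96% ± 1.36) and Nfix (88.4% ± 3.33, 22.6% ± 1.19), all as SD with n = 3. The libraries did not overlap in any of the 6 genes, and each exact two-sided permutation test gave 0.1, the smallest value that 3 against 3 libraries allow. This share was not computed over all genes, so it cannot be said whether the 6 genes differ from others in it. For Nfix in mESCs these were 186, 89 and 126 tags spread over the gene, with no group of neighbouring positions reaching 1 TPM. Counting the whole gene body lowered the log2 fold change of Nfic from 1.71 to 0.88.

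Away from all annotated ends, Nfic had 10 groups of neighbouring positions with 1 TPM or more in a line, of which 5 were higher in mESCs and the others in mOPCs, the latter at 1.02 to 1.97 TPM in mOPCs. The positions from 81401162 to 81401344, in an intron 608 bp from the annotated end of P5, held 615, 255 and 286 tags in mESCs and 0, 5 and 3 tags in mOPCs. This was 15.7 ± 0.484 TPM in mESCs (SD, n = 3), a level like that of the leading annotated promoter P3 there (13.9 ± 1.88 TPM), and 0.0822 ± 0.0870 TPM in mOPCs. A second intronic group, from 81408464 to 81408552, gave 4.83 ± 0.515 TPM in mESCs and 0.0231 ± 0.0400 TPM in mOPCs. With windows of 1000 bp, the first group falls to P5, whose log2 fold change then was -3.62. In Nfib the opposite was seen. Intronic positions from 82506307 to 82506604, 528 bp from the nearest end of P2 and upstream of it, gave 2.66 ± 0.0817 TPM in mESCs and 15.2 ± 0.986 TPM in mOPCs.

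Annotated genes on the other strand began within 1000 bp of 3 of the 6 genes, and CAGE tags keep the strand. E130114P18Rik, 214 bp from an Nfia end, had 1, 1 and 0 tags in mESCs and 247, 347 and 414 tags in mOPCs. Zeb2os, 26 bp from a Zeb2 end, had 0, 1 and 0 tags in mESCs and 168, 243 and 331 tags in mOPCs. Near Zeb1, Gm10125 rose from 8.98 ± 0.912 to 18.3 ± 0.268 TPM (log2 fold change 0.97, SE 0.12, edgeR adjusted p = 1.30e-12), and Gm2238 fell from 10.9 ± 0.777 to 0.654 ± 0.194 TPM (log2 fold change -4.14, SE 0.19, edgeR adjusted p = 7.28e-38). The partners of Nfia and Zeb2 were thus higher in mOPCs like the genes they face, and those of Zeb1 went both ways.

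The genes nearest to each member, by Euclidean distance of log2 TPM over the 6 libraries, were Snap91, Pak7 and Dclk1 for Nfia (distances 0.40, 0.58 and 0.60), and 6720483E21Rik, C130071C03Rik and Mir9-3hg, all long non-coding, for Nfix (0.54, 0.67 and 0.68). For Zeb2 they were Nsmf, Ugt8a and A330023F24Rik (0.36, 0.40 and 0.52), and for Zeb1 they were Sbf1, Fam126a and Zfp512 (0.32, 0.34 and 0.39). For Nfic they were Lztr1, Pyurf and AU041133 (0.24, 0.25 and 0.25), and for Nfib they were Dsn1, Slc35a5 and Ttc7b (0.20, 0.21 and 0.22). These distances describe 6 libraries of 2 lines and mostly follow the level in each line.

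Epithelial genes known as targets of ZEB repression were low in mOPCs throughout. Of 17 listed, 17 could be tested and 17 fell, against 47.8% of all tested genes, with summed levels of 667 to 697 TPM in mESCs and 0.684 to 1.05 TPM in mOPCs. Cdh1, which encodes E-cadherin, gave 352 ± 21.7 TPM in mESCs and had 1 tag in all mOPC libraries together. Epcam, an epithelial cell adhesion molecule, gave 101.1 ± 7.87 TPM and 2 tags, and St14, a membrane serine protease, and Cldn4, a tight junction protein, gave 56.7 ± 2.40 and 51.0 ± 6.67 TPM in mESCs and 0 tags in mOPCs. The median log2 fold change was -10.44, or -8.33 with the 8 genes at 0 tags in mOPCs set to the limit of 3 tags. This list belongs to the same comparison as the ZEB genes and does not show what lowered it.

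ZEB co-repressors and related factors of epithelial-mesenchymal transition were mixed. Of 16 listed, 15 could be tested, 4 were higher and 9 lower in mOPCs, where 43.4% of all tested genes were higher and 47.8% lower. The median log2 fold change was -0.92, against -0.12 over all tested genes. The CtBP co-repressors went opposite ways. Ctbp2 fell from 768 ± 58.1 to 31.5 ± 0.519 TPM (log2 fold change -4.67, SE 0.10, edgeR adjusted p = 2.27e-64), and Ctbp1 rose from 50.6 ± 0.662 to 187 ± 13.3 TPM (1.82, SE 0.09, edgeR adjusted p = 1.21e-36). Rbbp7 and Kdm1a, subunits of chromatin co-repressor complexes, fell to 74.1 ± 1.93 and 178 ± 6.07 TPM from 479 ± 9.73 and 320 ± 13.8 TPM, and the deacetylase Hdac2 rose slightly, from 285 ± 3.20 to 346 ± 18.3 TPM. Among the other factors of this transition, Snai1, Snai2 and Snai3 were lower in mOPCs (439, 340 and 593 pooled tags in mESCs against 1, 55 and 0), and Twist1 was higher at a low level (1.11 ± 0.143 and 2.00 ± 0.626 TPM). Twist2 had 0 tags in all libraries.

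Of the 8 SMAD genes, which transmit TGF-beta and BMP signals and include partners of Zeb2, 5 rose, 1 fell and 2 were not called, against 43.4% higher and 47.8% lower among all tested genes. The median log2 fold change was 1.05. Smad4, the common partner of the others, rose from 43.5 ± 4.58 to 89.9 ± 5.74 TPM (log2 fold change 0.98, SE 0.09), and Smad1 from 13.9 ± 0.601 to 55.9 ± 5.36 TPM (1.94, SE 0.10). Smad5 and Smad2 had log2 fold changes of 0.00 and -0.05 and did not pass the test (edgeR adjusted p = 0.98 and 0.55). Smad7, an inhibitory SMAD, was the one that fell, from 15.8 ± 0.427 to 4.83 ± 0.357 TPM. Smad6, also an inhibitory SMAD, rose from 2.35 ± 0.279 to 5.14 ± 0.862 TPM, so these went opposite ways.

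Regulators and glial targets of nuclear factor I showed 10 higher and 3 lower genes among the 13 of 14 that could be tested, against 43.4% and 47.8% of all tested genes. The median log2 fold change was 1.11. Fabp7, a lipid-binding protein of radial glia, had 3 tags in mESCs in all and 62.0 ± 5.33 TPM in mOPCs, and Mmd2 rose from 0.865 ± 0.192 to 61.7 ± 5.26 TPM. Sox9, which acts with Nfia in gliogenesis, rose from 0.131 ± 0.0422 to 2.98 ± 0.686 TPM, far under the level of Nfia. Notch1, a receptor that promotes glial fate, rose from 45.2 ± 1.97 to 90.4 ± 5.48 TPM. Slc1a3, a glial glutamate transporter, rose from 39.7 ± 0.709 to 89.5 ± 6.81 TPM. The genes that fell were Ezh2, the Polycomb methyltransferase (222 ± 6.93 to 90.04 ± 2.70 TPM), Hes1, a Notch target (72.3 ± 2.86 to 9.95 ± 1.02 TPM), and Aldh1l1, an astrocyte enzyme (8.48 ± 1.22 TPM to 2 tags in all). Hes5, also a Notch target, rose from 1.29 ± 0.0367 to 7.56 ± 1.42 TPM. Gfap, the astrocyte filament protein, rose at a low level, from 0.516 ± 0.164 to 0.992 ± 0.161 TPM, and Aqp4 had 1 tag in mESCs and 0 in mOPCs.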

How the data were processed

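Nuclear CAGE libraries of mESC (n = 3) and mOPC (n = 3) were used as deposited by the authors, as counts of tags per start position and strand on mm10, 1 file per library. The submitters' processing notes name CASAVA 1.8 and BWA 0.5.9, while the study's methods name bowtie with unique alignments, so the aligner behind these files was not settled here. The deposited counts are whole numbers and not normalized. The study's methods describe a power-law normalization for its own expression values, which was not used here.

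Tags within 500 bp of GENCODE vM21 5′ ends on the gene's strand were summed per gene and promoter (Python 3.11.15, pandas 2.3.3) and divided by the library total, between 16657021 and 40928704 tags. That depth gives a limit of 3 tags of 0.0411 TPM over the pooled mESC and 0.0327 TPM over the pooled mOPC libraries, for counting error only. Genes and promoters were tested with edgeR 4.0.16 (R 4.3.3; filterByExpr, TMM, robust quasi-likelihood test), promoter usage with diffSpliceDGE, and shares with exact two-sided permutation tests. P-values were adjusted over all features tested. Simulated data held 200 planted log2 changes of size 2, with a coefficient of variation of 0.1 between replicates. On these the gene test recovered 200 of 200 planted changes with 12 false calls among 212. The usage test, scored per gene, recovered 181 of 200 with 13 false calls among 194. Smaller changes, such as that of Nfib, and changes in most genes at once were not simulated. Libraries of a line differed by more than sampling noise (chi-square per degree of freedom 4.52 to 10.9), so none was a mere copy of another. This cannot tell whether they came from separate RNA samples or cultures. Alternatives were no TMM, DESeq2 1.42.0, no filter, windows of 100 and 1000 bp, GENCODE basic ends, whole gene bodies, a replicate block and leaving out each library.

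The members, gene lists and tests were chosen with earlier results of these data known. Promoters were named when they passed the filter or held 5% or more of a gene's promoter tags in any library, which took in 20 of 25. The other 5 were Nfia P3 and P4, Nfib P1 and P3 and Zeb1 P4, at no more than 16 tags in any library. The 4 genes of each list with the highest mean levels were named by rule, and Ctbp1, Snai1, Snai2, Snai3, Twist1, Twist2, Smad6, Smad7, Fabp7, Mmd2, Sox9, Hes5, Aldh1l1, Gfap and Aqp4 after their values were seen. Sequences came from RefSeq promoter windows, RefSeq miRNAs and GENCODE transcripts, and no protein sequence was used here. Sequences on chromosome 18, where Zeb1 lies, were left out, so none of Zeb1 is shown. Among the other genes, a window was found for Zeb2, Nfia, Nfix and Nfic.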

Additional observations from a re-analysis of the deposited data

How the results depend on the processing

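The log2 fold changes of Nfia, Nfic, Nfix, Zeb1 and Zeb2 kept their direction and stayed past the threshold under all alternatives run. Nfib kept its direction and lost its call without mESC replicate 2 (range over left-out libraries 0.19 to 0.33, main value 0.30), and was larger with windows of 1000 bp (0.48) and over the whole gene body (0.68). The number of promoters with changed usage was 4151, against 6709 with no filter on low counts, which tests more promoters, and 1448 with GENCODE basic ends, which hold fewer. With windows of 100 bp, the direction reversed for Nfic P2 (log2 fold change -0.088), for Zeb1 P1 (-0.63), and for the shares of Nfia P1 and P2 (differences of 2.12 and -2.20 percentage points), and the cause was not tested. Log2 fold changes also moved with the region counted: Nfic to 0.83 with windows of 1000 bp, Nfic P4 to -2.65 with the same windows, Nfia P1 to 7.86 and Zeb2 P1 to 3.28 with windows of 100 bp. Zeb2 P5 was 5.23 without mESC replicate 1. With windows of 1000 bp, Zeb1 P1 and P2 and Zeb2 P2 and P3 merge, so no value is given. The replicate block gave 15224 genes, against 15243 without it, a Nfib log2 fold change of 0.30, and changed no call of a member. Deviations of same-numbered libraries were not correlated (r = -0.003, 0.060 and 0.006), so these values show no pairing. They cannot exclude a shared preparation or run. Leaving out TMM moved the median of all genes by 0.066 and DESeq2 by -0.096 on the log2 scale. In mESCs, depth limits Nfix and Nfia most, with 12 to 45 and 42 to 108 tags per library.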

Other observations

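The miR-200 family, microRNAs known to repress ZEB genes, was looked at after the values above were seen. CAGE does not measure mature miRNAs, so tags were summed on the minus strand from 6000 bp upstream of each cluster to its last hairpin. Tags of other genes on that strand were not taken out, so the sums cannot be assigned to the miRNA transcripts. The cluster of miR-200b, miR-200a and miR-429 (mm10 chr4:156053905-156061750) had 348, 197 and 230 tags in mESCs and 0, 1 and 0 tags in mOPCs. The cluster of miR-200c and miR-141 (chr6:124717914-124724390) had 100, 34 and 64 tags in mESCs and 0, 1 and 1 tags in mOPCs. The lines did not overlap at either locus, and exact permutation tests gave 0.1, the smallest value 3 against 3 libraries allow. Other loci were not summed in this way, so no share over all loci can be set beside this. The members fall into 2 seed groups, shown with the seed (bases 2 to 8) in capitals.
miR-200b-3p: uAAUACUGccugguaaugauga
miR-200c-3p: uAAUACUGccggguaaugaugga
miR-429-3p: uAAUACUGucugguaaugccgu
miR-141-3p: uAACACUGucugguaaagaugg
miR-200a-3p: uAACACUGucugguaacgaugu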
